A study of Mus musculus with 2 samples.

Results

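The genes described here are 37 mouse genes that interferons are known to induce, found by symbol among the 27998 genes counted in γδ T cells of the liver and the thymus. All 37 symbols were in the gene table, each on a single row. γδ T cells are lymphocytes whose antigen receptor is built from γ and δ chains. The series held 1 hepatic and 1 thymic library of droplet-based 3′ single-cell RNA sequencing. Both came from untreated wild-type C57BL/6J mice 8 weeks of age, and the cells of both tissues were sorted on CD3e and the γδ T cell receptor. The thymic suspension alone was first depleted with anti-CD4 and anti-CD8 magnetic beads. Cells were pooled over mice and no label ties a cell to a mouse, so each tissue was 1 sample, no test between tissues was possible, and preparation and tissue cannot be told apart.

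A cell was kept with 800 to 4000 detected genes and at most 6% mitochondrial UMIs (unique molecular identifiers, which count the captured RNA molecules). This left 8075 of 8658 hepatic and 4351 of 4541 thymic barcodes, with a median of 2741 and 3271 UMIs per cell. The libraries shared 60 barcodes, carried by 116 kept cells. A level below is the UMIs of a gene summed over cells and divided by all UMIs of those cells, per 1000000 (CPM), and is not scaled to gene length. The values in brackets are exact 95% intervals, which cover counting error only and not the spread between mice. T cell markers stood at 3835 CPM over all hepatic cells, but at 846 CPM in a class of 105 hepatic cells (C8-like) whose myeloid genes stood at 20630 CPM. Results that these cells touch are given with and without them.

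Interferons are secreted proteins that bind receptors on the cell surface and activate JAK kinases. Type I and type III interferons lead to a complex that holds STAT2 and IRF9 and binds an interferon-stimulated response element, and type II interferon (IFN-γ) leads to binding at a gamma-activated site. The induced proteins detect viral RNA and DNA, block its translation and replication, and feed back on the signal. Cells in uninfected tissue are known to hold a low, tonic level of some of these transcripts.

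The 250 bases before each RefSeq transcription start (GRCm38.p6) were read for the 29 members with an entry. A gene was counted when any of its windows held the motif. The letters GAAA, any 2 bases and GAAA again, the core of the interferon-stimulated response element, stood on either strand in 10 of 29 (34.5%), against 3.46% of 27025 genes. The letters TTCNNNGAA of the gamma-activated site stood in 5 of 29 (17.2%), against 8.13% of all genes. Members that hold the former were Ifit1, Ifit3, Ifit3b, Ifit1bl1, Rsad2, Phf11a, Isg15, Stat2, Trim30a and Bst2, and those that hold the latter were Ifit2, Isg20, Irf1, Eif2ak2 and Bst2. The windows of 5 members are printed because the levels of these genes separate the tissues, the cell classes or the few high cells described below. Each runs 5′ to 3′ towards the gene, with the motif letters in capitals on whichever strand they lie (the first motif reads as TTTC, 2 bases and TTTC on the opposite strand). Isg15 lies at chr4:156200819-156201068 (minus strand), Ifit3 at chr19:34583279-34583528 (plus), Rsad2 at chr12:26456453-26456702 (minus), Ifit1bl1 at chr19:34601969-34602218 (minus) and Irf1 at chr11:53769764-53770013 (plus).
Isg15: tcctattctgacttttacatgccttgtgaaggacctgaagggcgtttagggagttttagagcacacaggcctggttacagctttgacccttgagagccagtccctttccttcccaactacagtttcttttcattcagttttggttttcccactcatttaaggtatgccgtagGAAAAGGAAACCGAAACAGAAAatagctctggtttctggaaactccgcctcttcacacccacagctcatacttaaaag
Ifit3: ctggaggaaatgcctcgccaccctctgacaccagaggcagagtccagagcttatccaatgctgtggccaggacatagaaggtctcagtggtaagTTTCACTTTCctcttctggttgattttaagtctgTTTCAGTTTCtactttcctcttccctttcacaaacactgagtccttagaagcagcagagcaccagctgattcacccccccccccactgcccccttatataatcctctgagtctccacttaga
Rsad2: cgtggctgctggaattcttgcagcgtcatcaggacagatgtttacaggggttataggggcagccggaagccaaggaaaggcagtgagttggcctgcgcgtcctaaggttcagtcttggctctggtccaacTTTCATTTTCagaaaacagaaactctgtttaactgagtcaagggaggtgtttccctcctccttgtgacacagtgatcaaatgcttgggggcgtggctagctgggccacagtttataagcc
Ifit1bl1: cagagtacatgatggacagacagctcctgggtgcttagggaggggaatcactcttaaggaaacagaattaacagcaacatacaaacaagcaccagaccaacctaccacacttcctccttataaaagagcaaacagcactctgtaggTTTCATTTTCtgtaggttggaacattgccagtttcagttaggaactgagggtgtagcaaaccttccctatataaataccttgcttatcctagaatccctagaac
Irf1: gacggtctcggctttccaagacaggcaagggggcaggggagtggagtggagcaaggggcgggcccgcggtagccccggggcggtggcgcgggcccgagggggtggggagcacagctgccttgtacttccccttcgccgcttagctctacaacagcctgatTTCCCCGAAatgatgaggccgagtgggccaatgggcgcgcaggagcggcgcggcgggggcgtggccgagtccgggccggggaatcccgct
Isg15 held 3 overlapping matches, the nearest ending 56 bases before the start. Ifit3 held 2, 112 and 146 bases before it. Irf1 held none of the first motif in this window and 1 of the second, 81 bases before the start, and Ifit1bl1 and Rsad2 held 1 match each, 94 and 110 bases before. Ifit1bl1 and Irf1 each had another start, whose window is not printed. That of Ifit1bl1 held 1 match of the first motif, 13 bases before the start, and that of Irf1 held neither motif. A match of letters is a description and was not tested for binding.

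The summed level of the 37 genes was 1281 CPM (1267–1296) in hepatic and 935 CPM (920–950) in thymic cells, a ratio of 1.37 (1.35–1.40). A gene was compared between tissues when it had at least 50 UMIs over both libraries, which 36 members had, all but Ifi44 (7 hepatic and 24 thymic UMIs). At least 2-fold higher in liver were 5 of 36 members, against 12.1% of all genes compared, and at least 2-fold lower was 1 of 36, against 16.9%. Both shares of members were close to or below those of all genes. The median liver-to-thymus ratio was 1.34 over the members and 0.861 over all genes compared. Without the C8-like cells and 18 B cell-like cells, 4 of 35 members were at least 2-fold higher (11.3% of all genes) and 1 lower (17.3%), since Ifi204 then fell short of 50 UMIs.

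The 5 IFIT genes lie within 99316 bases of chromosome 19 (GRCm38) and encode proteins that bind viral RNA and block its translation. Ifit1 had 448 hepatic and 236 thymic UMIs, 18.5 and 13.8 CPM. Ifit3 stood at 15.2 and 7.97 CPM, a ratio of 1.91 (1.56–2.34), just under 2-fold. The 2 members of the family past 2-fold were Ifit2 and Ifit1bl1. Ifit2 was at 9.10 CPM in liver and 3.63 in thymus, a ratio of 2.505 (1.88–3.38). Ifit1bl1 showed the widest gap between tissues of all members, with 456 hepatic UMIs and 16 thymic ones, 18.9 against 0.938 CPM, a ratio of 20.1 (12.3–35.5). Ifit3b was low in both libraries at 2.56 and 1.88 CPM. Of the 50-base stretches in the last 500 bases of the transcript, 14.9% of those of Ifit3 also stood in Ifit3b and 9.1% of those of Ifit1bl1 in Ifit1bl2, so counts within these pairs are uncertain.

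Among the other antiviral effectors, Rsad2, which encodes viperin, and its chromosome 12 neighbour Cmpk2, a mitochondrial nucleotide kinase, are known to be induced together. Rsad2 had 117 hepatic UMIs and 169 thymic ones, 4.84 against 9.90 CPM, a ratio of 0.489 (0.383–0.622) that made it the only member past 2-fold in the thymic direction. That count was 0 without the cells of highest doublet scores and 2 under other settings. Cmpk2 stood at 4.76 and 3.93 CPM, a ratio of 1.21 (0.889–1.66) whose interval holds 1. Bst2, which encodes tetherin and holds budding virions at the membrane, was the most abundant of these effectors and nearly level, at 117 CPM in liver and 122 in thymus. Zbp1, a sensor of Z-form nucleic acid, was at 84.7 and 58.7 CPM, Samd9l at 38.2 and 23.8, and Xaf1 at 47.4 and 33.7. The exonuclease gene Isg20 was lower in liver, at 19.5 against 27.5 CPM. Mx1, an antiviral GTPase gene whose allele in this strain is known to lack part of its coding sequence, stood at 6.08 and 3.81 CPM. The kinase gene Eif2ak2 (PKR) was level at 8.77 and 9.44 CPM, and the oligoadenylate synthetase-like genes Oasl1 and Oasl2 stood at 4.84 and 9.89 CPM in liver and 5.86 and 14.8 in thymus.

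The cytoplasmic RNA sensor genes Ddx58 (RIG-I) and Ifih1 (MDA5) were higher in liver by less than 2-fold, at 31.7 against 23.3 and 8.36 against 6.21 CPM, while Dhx58 (LGP2) was at 6.17 against 8.03. Ifi204, of the DNA-sensing p200 family, was at 3.81 CPM in liver and 1.11 in thymus, a ratio of 3.42 (2.07–5.94). The C8-like cells held 65 of its 92 hepatic UMIs, and without them and the B cell-like cells the ratio was 1.94 (0.909–4.49) on 27 hepatic and 10 thymic UMIs. Isg15 encodes a ubiquitin-like protein that is attached to other proteins and was the second most abundant member in liver. It had 4058 hepatic and 861 thymic UMIs, 168 against 50.5 CPM, a ratio of 3.33 (3.09–3.59). After each cell was thinned to 1500 UMIs, 18.3% of hepatic and 5.73% of thymic cells held an Isg15 UMI. The hepatocyte genes, which T cells should lack, were met in 0.523% of hepatic and 0.694% of thymic cells outside the high cells defined below. The part of RNA from other cells in the Isg15 counts was not tested. Usp18, which removes ISG15 and dampens the receptor, went the other way at 8.61 and 15.3 CPM. The ligase genes Herc6 and Trim25 stood at 19.8 and 10.1 CPM in liver and 16.8 and 18.8 in thymus.

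Irf1, a transcription factor induced above all by IFN-γ, was the most abundant member in liver and second to Bst2 in thymus, with 5028 hepatic and 1825 thymic UMIs. Its level was 208 CPM in liver and 107 in thymus, a ratio of 1.95 (1.84–2.05). Irf7, which drives type I interferon genes, stood at 62.9 and 46.4 CPM. The members of the complex that binds the response element differed in direction, with Irf9 at 45.1 CPM in liver and 61.7 in thymus and Stat2 at 8.57 and 6.62. Parp9 and Dtx3l, whose proteins form a complex and whose genes overlap, stood at 22.1 and 37.4 CPM in liver and 20.5 and 42.7 in thymus. The ratio of Parp9 was 1.075 (0.938–1.234), an interval that holds 1, and that of Dtx3l was 0.877 (0.794–0.968). Parp14 was at 22.6 against 12.1 CPM and Parp12 at 4.18 against 3.05. Phf11a was at 4.55 CPM in liver and 0.586 in thymus, a ratio of 7.77 (4.07–16.6), but 32.8% of the 50-base stretches of its transcript end also stand in Phf11b, Phf11c or Phf11d. Ifi35, Trim30a and the chaperone gene Rtp4 stood at 85.7, 55.6 and 57.6 CPM in liver and 51.0, 50.4 and 50.04 in thymus.

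**Figure D1:**
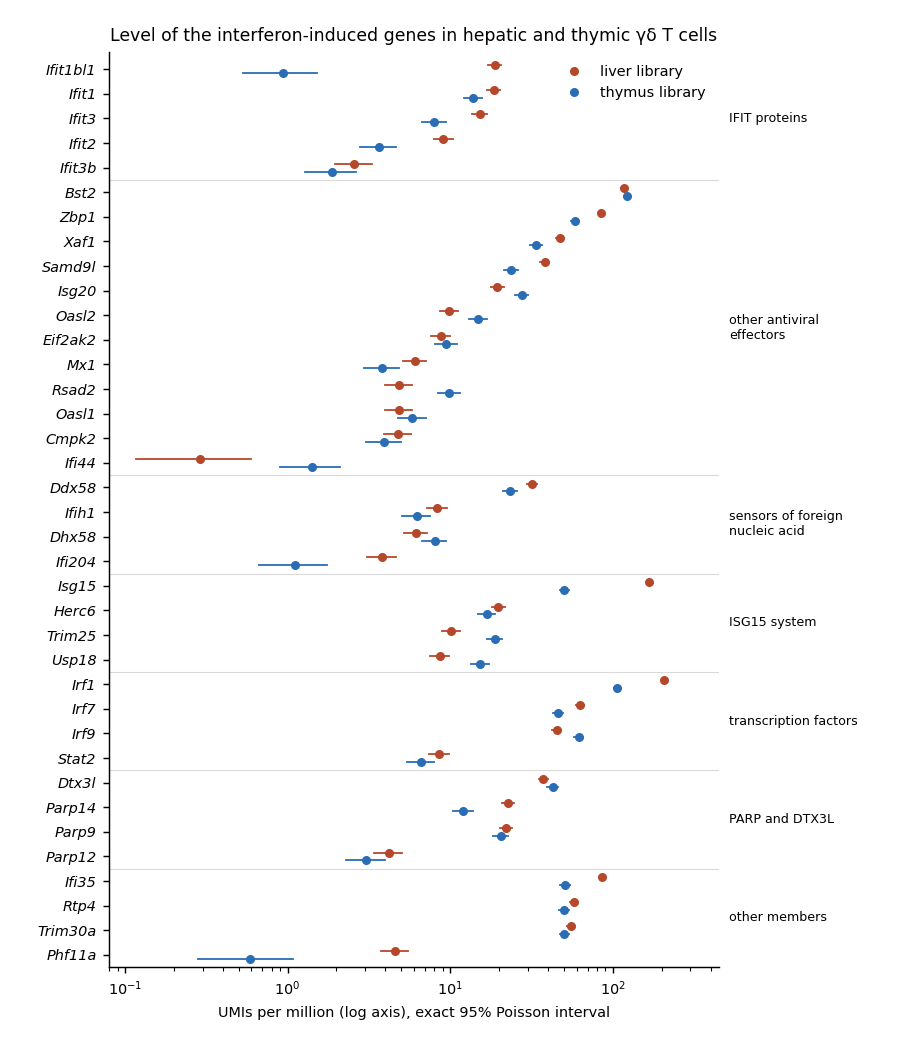
Level of each of the 37 interferon-induced genes in hepatic and thymic cells (CPM, log axis), grouped by role. Points are library levels and bars exact 95% counting intervals. Ifit1bl1, Phf11a, Ifi204, Isg15 and Ifit2 lie more than 2-fold to the right in liver, Rsad2 and the scarce Ifi44 in thymus, and the other members lie within 2-fold.

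The tissues differ in the types of cell they hold, so the members were read within cell classes found by clustering both libraries together without the interferon genes. Each class carries the suffix -like because its name rests on marker genes. C4-like (2867 cells), C5-like (2799), C7-like (277) and C8-like (105) cells were hepatic, and the C1-like progenitor class was thymic (2471). C3-like (1085 hepatic, 182 thymic), C6-like (795 and 165), C2-like (87 and 980) and cycling-like cells (42 and 540) came from both. C6-like cells carry genes of the IL-17 programme, C4-like cells those of γδ NKT cells, and C5-like and C7-like cells cytotoxic genes. The C2-like class held 3 hemoglobin genes among its 10 leading genes, and its marker score was 2.26 against 1.89 for erythroid markers. At resolution 0.8 the C2-like class had 16 hepatic and 879 thymic cells, beside an erythroid-like cluster of 68 and 123. The hepatic part of the C2-like class thus changed with the clustering.

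The module was lowest in the cycling-like cells, at 666 CPM in thymus and 790 in liver, and in the thymic C1-like class, at 853 CPM. It was highest in the C8-like cells, at 2326 CPM, followed by the C4-like cells at 1437 and the thymic C3-like cells at 1421. When the C1-like and cycling-like cells were left out of the thymus, the remaining 1340 thymic cells stood at 1364 CPM, and the liver-to-thymus ratio turned to 0.940 (0.914–0.967). The direction of the pooled difference therefore differed with and without these classes. Within C2-like cells the module stood at 1380 CPM in liver and 1349 in thymus, a ratio of 1.02 (0.910–1.15), and within C6-like cells at 1098 and 1134, a ratio of 0.969 (0.884–1.06). Both intervals hold 1, but the hepatic C2-like cells are not a stable class. Within cycling-like cells the ratio was 1.19 (1.04–1.35). In C3-like cells the module was lower in liver, at 1197 against 1421 CPM, a ratio of 0.842 (0.782–0.907). That gap rested on few cells, for without the high cells defined below, 5 of them thymic, the ratio was 0.986 (0.908–1.07).

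**Figure D2:**
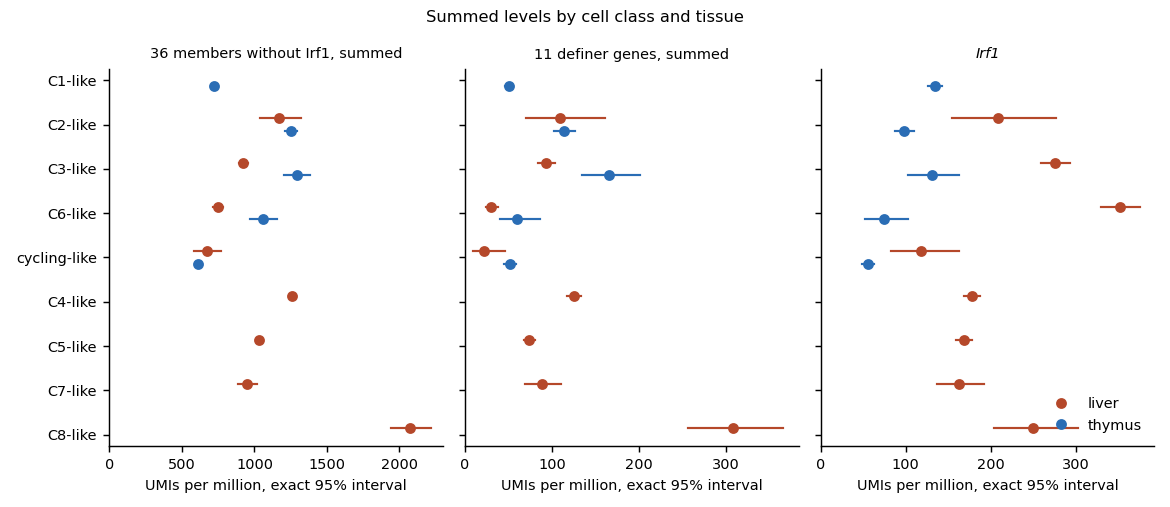
Levels by cell class and tissue (CPM, linear axes) in 3 panels: the 36 members other than Irf1 summed, the 11 genes that define high cells summed, and Irf1. Each point is 1 class in 1 tissue, and bars are exact 95% counting intervals. C8-like cells stand highest in the first panels, while Irf1 is highest in hepatic C6-like cells and right of thymus in every class with both tissues.

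Irf1 did not follow the other members across classes. It was higher in liver in every class with at least 20 cells of each tissue, by 2.11-fold (1.67–2.69) in C3-like cells at 276 against 131 CPM. In C6-like cells it stood at 352 CPM in liver, its highest class, against 74.1 in thymus, a ratio of 4.75 (3.41–6.83). It was the only member at least 2-fold higher in liver among the 20 compared in C3-like cells (5.24% of all genes) and among the 16 compared in C6-like cells (6.52%). Without Irf1, the module ratio was 0.714 in C3-like cells and 0.704 (0.638–0.778) in C6-like cells, and thus lower in liver in both. The C3-like value still counts the high cells. The ratio of 0.986 without them is that of the whole module, in which Irf1 is counted, and so does not apply to the other members alone. Immediate-early and heat shock genes of the kind that cell handling induces were for the most part higher in liver as well. A list of 12 such genes summed to 19660 CPM in liver and 3449 in thymus, 10 of 12 at least 2-fold higher in liver. Egr1 and Nr4a1 were lower in liver over all cells, at ratios of 0.755 and 0.611. Within C3-like and C6-like cells both were at least 2-fold higher in liver. The list stood at 13170 against 6848 CPM in C3-like and 21770 against 8970 in C6-like cells. The part of these genes in the Irf1 difference was not tested.

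Lower in liver by at least 2-fold within C3-like cells were 4 of 20 members (3.89% of all genes). Isg20 stood at 11 CPM in liver and 83.7 in thymus, Samd9l at 28.6 and 83.7, Rtp4 at 50.1 and 115.5, and Ifit3 at 21.2 and 45.2. Without the high cells 2 of 19 members were at least 2-fold lower in liver (3.82% of all genes) and 1 was higher (Irf1, 5.31%). Isg20 (9.70 and 74.0 CPM) and Samd9l (27.7 and 68.9) were still past 2-fold, while Rtp4 was at 49.3 and 93.0 and Ifit3 at 12.5 and 15.5. In C6-like cells 3 of 16 members were at least 2-fold lower in liver (2.21% of all genes). These were Samd9l at 22.3 and 47.3 CPM, Zbp1 at 55.7 and 113.2, and Rtp4 at 23.5 and 55.6. In C2-like cells 2 of 23 were higher (Ifit3 and Irf1, 5.49% of all genes) and 3 lower (Trim25, Herc6 and Oasl2, 11.4%). In cycling-like cells 2 of 18 were higher (Irf1 and Ddx58, 7.26%) and 1 lower (Oasl2, 17.1%).

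Some members kept to particular classes. C8-like cells held the highest level of 15 members, but for 5 of these alone did the interval lie apart from that of the next class (Ifit2, Rsad2, Ifi204, Isg15 and Ifih1). They included Ifi204 at 157.6 CPM (121.7–200.9) against 6.70 in the next class, Ifit2 at 89.7 against 11.8, and Isg15 at 313. The thymic C3-like cells held the highest level of 8 members, of which Isg20 and Samd9l alone lay apart from the next class. Ifit1bl1 was highest in C4-like cells at 30.9 CPM (27.2–34.9), with 18.6 in C5-like and 13.1 in C7-like cells, and 0.7 in thymic C1-like cells. Isg15 was likewise high in C4-like cells, at 231 CPM. Oasl2 outside C8-like cells was highest in C6-like cells, at 47.7 CPM in liver and 28.8 in thymus, against 1.00 in C5-like and 5.49 in C4-like cells. The C8-like cells are so few that without them and the B cell-like cells the hepatic module was 1264 CPM.

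To separate a tonic level from the few cells with a strong response, a cell was called high when it held UMIs of at least 3 of 11 genes after thinning to 1500 UMIs. The 11 definers were Ifit1, Ifit2, Ifit3, Ifit3b, Ifit1bl1, Rsad2, Mx1, Cmpk2, Usp18, Ifi44 and Oasl1. In liver 35 of 8070 cells were high, 0.434% (0.302–0.603), and in thymus 22 of 4344, 0.506% (0.318–0.766). The intervals of the tissues overlapped. None of the definers was seen in 7297 hepatic and 4039 thymic cells, 1 in 657 and 252, 2 in 81 and 31, and exactly 3 in 16 and 12, so the call is a range and not a cell type. Up to 7 definers were seen in a single cell. Since thinning is random, it was repeated 20 times, which gave 35 to 47 hepatic and 17 to 29 thymic high cells. The median share over the repeats was 0.502% in liver and 0.472% in thymus. Of the cells called here, 28 of 35 and 16 of 22 were high in at least 10 of the 20 repeats.

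High cells were spread over the classes. In liver they were 18 of 2867 C4-like cells, 0.628% (0.373–0.990), 8 of 1085 C3-like cells, 0.737% (0.319–1.45), 6 of 2798 C5-like cells, 0.214% (0.0787–0.466), 1 of 276 C7-like and 2 of 105 C8-like cells. In thymus they were 5 of 182 C3-like cells, 2.75% (0.898–6.29), 8 of 976 C2-like cells, 0.820% (0.354–1.61), 3 of 540 cycling-like cells and 5 of 2468 C1-like cells, 0.203% (0.0658–0.472). The last thymic high cell was 1 of 2 thymic cells in the C7-like clusters. The C6-like class held none, 0 of 795 hepatic and 0 of 165 thymic cells. A bound of 3 counts allows a share of up to 0.377% and 1.82% there, and the exact intervals end at 0.463% and 2.21%. The hepatic C2-like and cycling-like cells also held none, 0 of 84 and 0 of 42. The same bound allows 3.57% and 7.14%, and the exact intervals end at 4.30% and 8.41%.

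**Figure D3:**
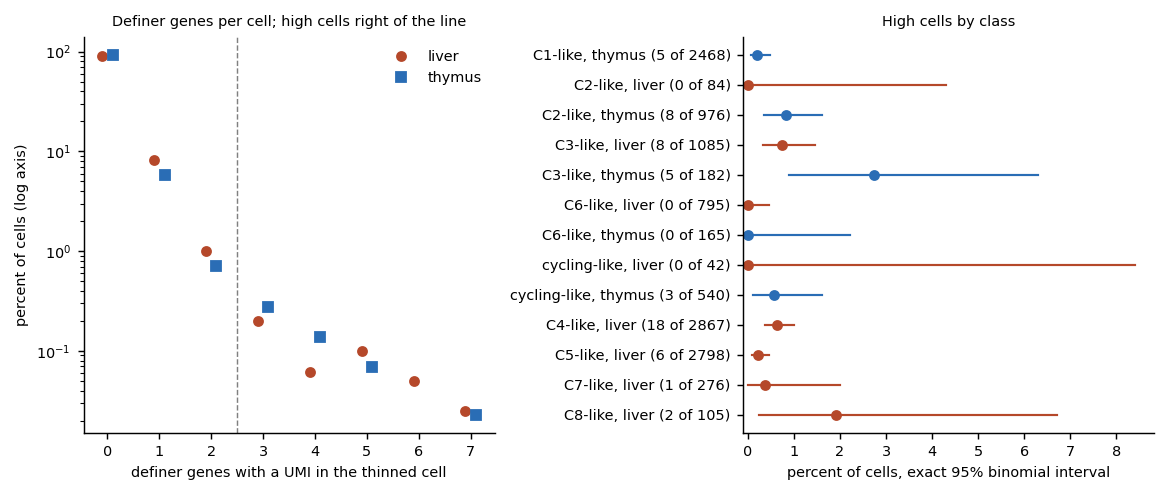
Left, percent of cells (log axis) by the number of definers with a UMI after thinning to 1500 UMIs, with the line between 2 and 3 definers. Right, share of high cells by class and tissue (percent), with exact 95% binomial intervals and the counts beside each name. Thymic C3-like cells have the highest share, 2.75%, and C6-like cells have none in either tissue.

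High cells were of similar depth to the others. Their median was 2796 UMIs in liver, against 2741 in the other cells, and 3217 in thymus, against 3272. The median Scrublet doublet score of high cells was 0.0577 against 0.0678 in liver and 0.0464 against 0.0768 in thymus. Scrublet has not worked on these data, so these scores do not measure doublets among the high cells. T cell markers were seen in all 35 and all 22 high cells. B cell and hepatocyte genes were seen in 0 of 35 and 0 of 22 after thinning. Cd4 and Cd8 coreceptor genes were met in 22.9% of hepatic high cells against 18.1% of the others, and in 1 of 22 thymic ones. Siglech, which marks the plasmacytoid cells known for making type I interferon, had 6 UMIs in 2 hepatic cells in all and 0 in thymus. Irf8, read with it as a plasmacytoid marker, had 1541 hepatic and 473 thymic UMIs. Either gene was met in 8.57% of hepatic high cells against 8.14% of the others. In thymus the shares were 0 of 22 and 4.35%. Erythroid genes were met in 11.4% (3.20–26.7) of hepatic high cells, 4 of 35, against 3.06% of the others, and in 4.55% against 6.48% in thymus, and their part in the result was not tested. Myeloid genes were met in 22.9% of the hepatic high cells and 25.0% of the others, and in 13.6% and 15.02% in thymus, a share carried by Cst3, which alone was met in 22.0% of all hepatic cells, while Lyz2 was met in 3.67%. The summed myeloid level in liver was 2842 CPM against 533, and 121 CPM in the high cells once C8-like and B cell-like cells were left out. The handling list stood at 0.968 and 1.00 times its level in the other cells.

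Of the 26 members that are not definers, a high cell held a median of 6 in liver (range 1–15) and 6.5 in thymus (1–12) after thinning, against 1 in the other cells of either tissue (0–13 and 0–10). The module was 12120 CPM in hepatic high cells and 1231 in the others, and 8196 against 898 in thymus, counting the definers themselves. Even so, the high cells held only 4.36% of the hepatic and 4.33% of the thymic module UMIs, from 0.460% and 0.493% of all UMIs. For the definers alone, each counted in cells that were high by the other 10, the share was 16.6% in liver and 11.9% in thymus. Most of the module thus came from cells that were not called high. These held a median of 1 module UMI after thinning in either tissue, with ranges of 0–24 in liver and 0–18 in thymus. The high cells held medians of 18 and 12, with ranges of 4–44 and 4–23, so the ranges overlapped. Of the other cells, 21.8% in liver and 34.96% in thymus held no module UMI, and without the high cells the module was still higher in liver, at 1231 against 898 CPM. Counted without them, 6 members were at least 2-fold higher in liver, the former 5 and Mx1, and Rsad2 and Usp18 at least 2-fold lower, against 12.1% and 16.9% of all genes.

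**Figure D4:**
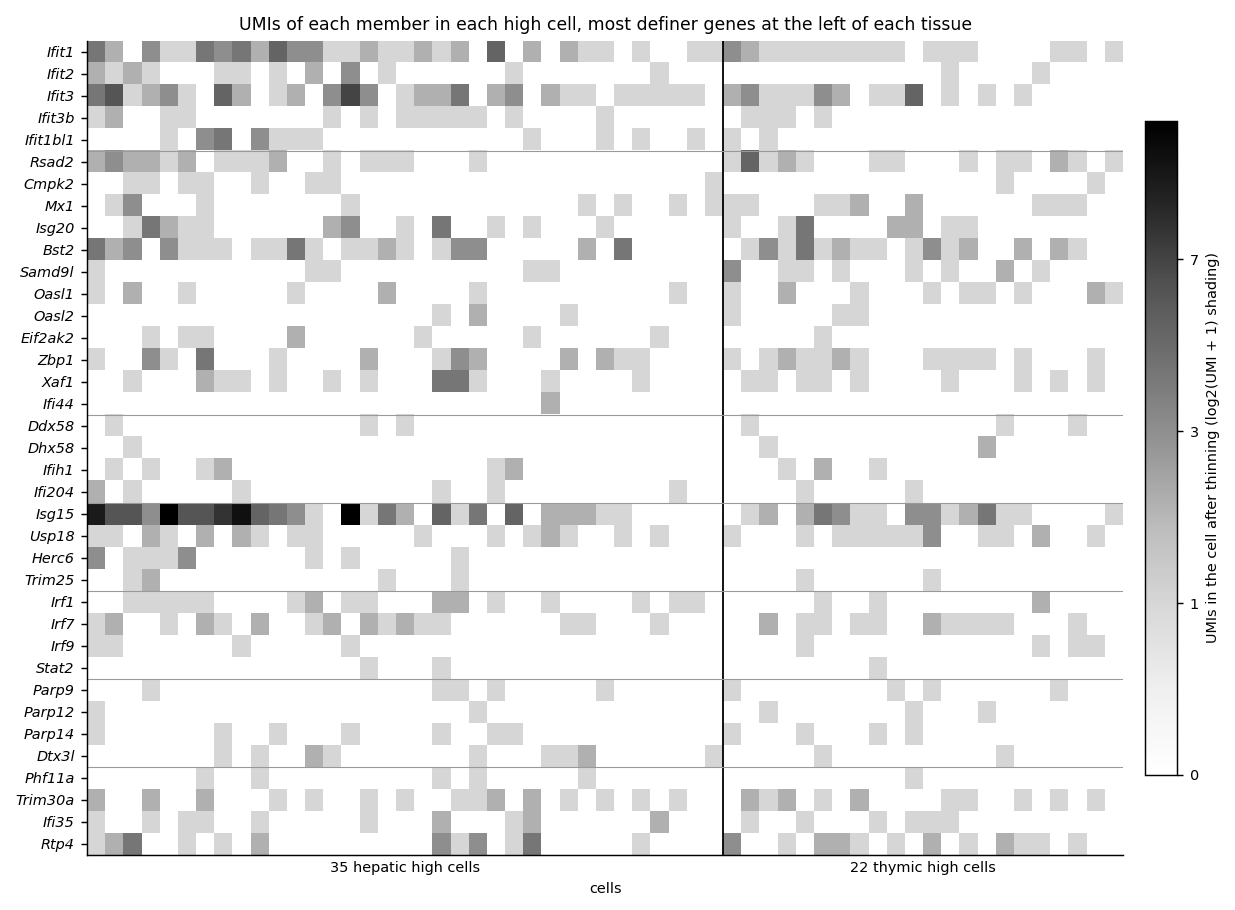
UMIs of each member (rows, grouped by role) in each of the 35 hepatic and 22 thymic high cells (columns) after thinning, shaded on a log2(UMI + 1) scale and with the cells of most definers at the left of each tissue. Isg15, Ifit1 and Ifit3 fill the most cells in liver, and most members are scattered over few cells each. Ifit1 and Ifit3 are definers, so the cells shown were chosen in part for holding them.

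The 26 members that are not definers played no part in the call. Like the definers, they were chosen with earlier results of these data known, so their rise is not independent support. Summed, they stood at 7824 CPM in hepatic high cells and 1157 in the others, a ratio of 6.76 (6.32–7.24), and at 5710 against 841 CPM in thymus, 6.79 (6.18–7.43). Without C8-like and B cell-like cells the hepatic ratio was 7.15. The definers were each read in cells that were high by the other 10. Among all members with at least 20 UMIs, 35 of 36 were at least 2-fold higher in hepatic high cells, against 12% of all genes compared, and 31 of 34 in thymic ones, against 12.6%. Without C8-like and B cell-like cells the hepatic count was 35 of 36, against 11% of all genes. The median ratio was 9.94 in liver, where all genes compared had a median of 0.776, and 8.44 in thymus.

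Rsad2, Ifit3b, Ifit3 and Ifit1 showed the widest gaps in liver. Rsad2 stood at 414 CPM in high cells and 2.99 in the others, 138-fold, and Ifit3b at 225 against 1.66, 136-fold. Ifit3 was at 1054 against 12.04 CPM, 87.5-fold, and Ifit1 at 1104 against 14.9, 74.3-fold. Usp18, Cmpk2 and Ifit2 followed among the definers, at 52.9-fold, 50.5-fold and 35.8-fold. Ifit1bl1 had the lowest ratio of the 10 definers compared, 14.7, and high cells held only 5.70% of its hepatic UMIs. In thymus Ifit3 was 77.0-fold and Mx1 59.9-fold higher, while Ifit2 had 0 UMIs in the thymic cells that were high by the other 10. Ifi204 led the members that are not definers in liver, at 153 against 3.12 CPM, 49.0-fold, on 17 UMIs in high cells. Without C8-like and B cell-like cells Ifi204 had 14 UMIs in high cells, at 141 against 0.551 CPM, 256-fold (111.5–590.7).

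Isg15 stood at 2275 CPM in hepatic high cells and 158 in the others, 14.4-fold (12.6–16.3), and was 17.1-fold higher in thymus. It was seen in 26 of the 35 hepatic high cells after thinning. Bst2 was at 800 CPM against 114 in liver. Irf7 was at 432 against 61.1 CPM, 7.06-fold, while its relative Irf9 was 2.20-fold higher. Samd9l was 2.85-fold higher in hepatic and 10.6-fold higher in thymic high cells, Rtp4 was 12.9-fold and Dhx58 17.6-fold higher in thymic ones. Irf1 was the exception in liver, at 297 CPM in high cells and 208 in the others, 1.43-fold (0.983–2.01). In thymus its ratio was 0.889, and Trim25 was also under 2-fold at 1.27. The most abundant hepatic member thus had nearly 2-fold different levels in the tissues but did not stand out in the high cells of either.

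**Figure D5:**
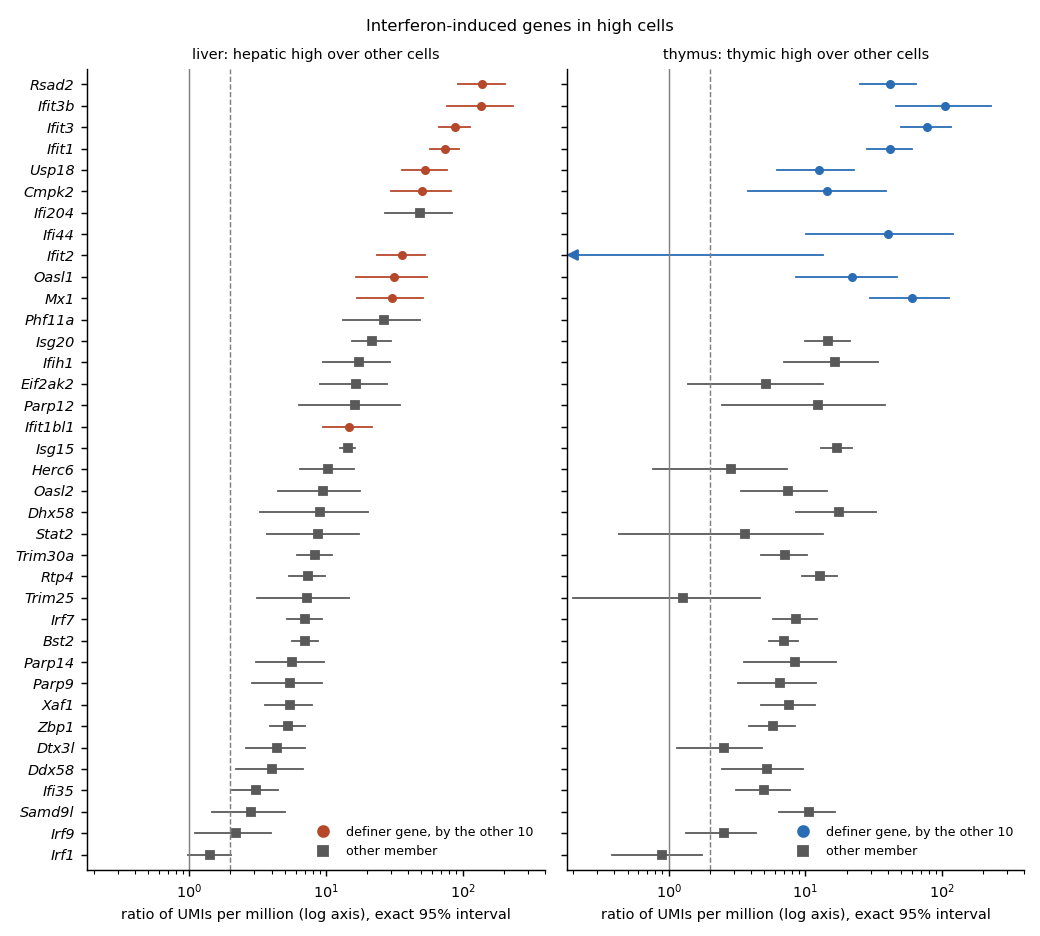
Ratio of each member's level in high cells to that in the other cells (log axis), in liver and thymus, with exact 95% counting intervals. The solid line marks equal levels, the dashed line 2-fold, and the arrow Ifit2 at 0 thymic UMIs. Definers are read in cells that are high by the other 10. Nearly all members lie right of 2-fold, and Irf1 lies nearest to equal levels in both tissues.

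Members were met together in single cells. Of the 149 hepatic cells with an Ifit3 UMI, 21.5% also held Ifit1, against 1.59% of the other cells, 9.40% held Rsad2, against 0.366%, and 42.9% held Isg15, against 17.8%. Irf1 was met in 30.9% against 23.5%, and Ifit1bl1 in 5.37% against 2.93%. Of the 38 thymic cells with Ifit3, 31.6% held Ifit1, against 1.51%, and 63.2% held Bst2, against 14.7%. Irf1 was met in 21.1% of them and 14.9% of the rest. When the interferon genes were kept in the clustering, 1 cluster of 69 hepatic and 4 thymic cells had 10 members as its 10 leading genes. It held 29 of the 35 hepatic but 4 of the 22 thymic high cells, and it drew 36 cells from the C5-like and 25 from the C4-like class.

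Other genes of the pathway were read from lists of receptors and signal transducers, of IFN-γ-induced genes and of further interferon-induced genes. Of the receptor and signalling genes, the kinase gene Tyk2 stood at 45.0 CPM in hepatic high cells and 12.1 in the others, on 5 UMIs in high cells. Socs3, which encodes a feedback inhibitor of cytokine signalling, stood at 351 against 131 CPM, 2.67-fold (1.90–3.66). In thymic high cells Jak2 and Tyk2 were at least 2-fold lower, as were 39.4% of all genes. IFN-γ-induced genes were at least 2-fold higher in 10 of 15 cases in liver, against 12% of all genes, and in 12 of 15 in thymus, against 12.6%. Examples were Gbp2 at 270 against 42.4 CPM and Igtp at 477 against 79.6, both GTPases of cell-autonomous immunity. Of the further interferon-induced genes, 17 of 20 were at least 2-fold higher in hepatic and 15 of 19 in thymic high cells, against the same shares. Among them was Ifitm3, an inhibitor of viral entry, at 396 against 66.3 CPM in liver and 190 against 7.25 in thymus. At least 2-fold lower were Gbp5, Nlrc5 and Trim21 in thymus (39.4% of all genes) and Ifitm1 in liver (38%). Without C8-like and B cell-like cells Ifitm3 was at 181 against 11.5 CPM in liver, 15.8-fold in place of 5.97-fold. There, 11 of 15 IFN-γ-induced and 16 of 20 further genes were at least 2-fold higher, against 11% of all genes.

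Between tissues, 10 of 15 IFN-γ-induced genes were at least 2-fold higher in liver, against 12.1% of all genes, with Igtp at 81.4 against 21.6 CPM and Gbp2 at 43.4 against 17.9. Ifng itself stood at 720 CPM in liver and 10.96 in thymus. Within C3-like cells 0 of 13 of these genes were at least 2-fold higher in liver, against 5.24% of all genes, and within C6-like cells 1 of 11, against 6.52%, both near the share of any gene. The receptor chain gene Ifngr2 went the other way, at 9.4 CPM in liver and 166 in thymus. Among ligands, Ifnb1 (IFN-β) had 60 hepatic UMIs in 14 cells, 56 of them in 10 C8-like cells, and 1 thymic UMI. Of the hepatic high cells 1 held Ifnb1, with 12 UMIs. It was a C8-like cell, since no hepatic cell of another class held more than 1 UMI of this gene. No high cell outside the C8-like class held Ifnb1. Ifna2 had 5 UMIs, and Ifna4, Ifnl2 and Ifnl3 had 0.

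Of the genes that are no members, the chemokine gene Cxcl10, a known interferon target, stood at 998 CPM in hepatic high cells and 58.8 in the others, 16.97-fold, and was seen in 13 high cells. Phf11b (10.7-fold, 26 cells) and the p200-family gene Pyhin1 (7.76-fold) also ranked among the 10 widest gaps. Hmox1, Cxcl1, Mt1 and Apoe ranked there as well but rested on C8-like cells, without which Hmox1, Cxcl1 and Mt1 had 0 UMIs in the high cells and Apoe a ratio of 0.352.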

How the data were processed

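Single-cell RNA was measured in 1 hepatic and 1 thymic library of sorted γδ T cells. The authors deposited raw UMI counts per gene and barcode, with no normalization. The submitters' processing notes name Cell Ranger, Seurat 3.0 and mm10, and the Cell Ranger version is not given in the sources used here. Counts were read with Python 3.11.15, numpy 2.4.6, scipy 1.17.1 and pandas 2.3.3, and plots drawn with matplotlib 3.10.9. The members and lists were chosen with earlier results of these data known. Named genes are all 37 members, and other genes by list or as the 10 widest gaps.

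Cells were normalized and clustered in Seurat 5.3.0 under R 4.3.3 (LogNormalize, 2000 variable genes, of which 1961 remained without interferon genes, 30 components, resolution 0.6). Clusters were named by marker genes: the mean log2 ratio of a class's markers had to reach 0.5 and exceed that of any other class by 0.2, with at least 3 markers detected. It stayed unnamed where its 10 leading genes held more members, or markers of another class, than its own markers. Scrublet (scanpy 1.11.5) marked 4 hepatic and 2 thymic barcodes as doublets and so has not worked, and those cells were kept. Thinning used seed 11 and left out cells under 1500 UMIs.

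Comparisons between tissues took genes with at least 50 UMIs, and between high and other cells at least 20. Intervals are exact Poisson for levels, conditional binomial for ratios and Clopper-Pearson for shares. A count of 0 was bounded by 3 counts. The scripts were tested on simulated data. Positions are from GENCODE on GRCm38 and sequences from RefSeq GRCm38.p6, in which 8 members had no entry (Mx1, Usp18, Ifi204, Parp9, Parp14, Dhx58, Zbp1 and Rtp4). By position, 14 members overlap another gene. Alternatives tried covered the definer number, thinning, filters, scaling, doublet scores, clustering and leaving out Irf1, C8-like and B cell-like cells or high cells. The full count of the receptor and signalling list is not reported here.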

Additional observations from a re-analysis of the deposited data

How the results depend on the processing

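The pooled module ratio between tissues turned from 1.37 to 0.94, with a thymic level of 1364 CPM, when the thymic C1-like and cycling-like cells were left out. No other ratio crossed 1 under the alternatives run. The tissue with the larger share of high cells, thymus at 3 definers in the draw used here, was liver at 2 and at 4, with overlapping intervals at 3. At 3 definers the order also changed with the draw, since the median share over 20 repeats was 0.502% in liver and 0.472% in thymus. The hepatic and thymic module (1281 and 935 CPM) and their ratio (1.37) were 1759, 1412 and 1.25 without mitochondrial and ribosomal-protein UMIs, and 1073, 828 and 1.3 without Irf1. With the mean of each cell's own CPM the thymic level was 966 CPM and the ratio 1.33. The 1 member at least 2-fold lower in liver became 0 when the cells with the highest Scrublet scores were removed, and 2 with the mean of each cell's own CPM, without mitochondrial and ribosomal-protein UMIs, at a minimum of 20 UMIs, and without the high cells. Requiring at least 2 definers gave 1.44% hepatic and 1.22% thymic high cells and a ratio of 4.31 for the members that are not definers in liver, and requiring 4 gave 0.235%, 0.23% and 8.31. Without thinning these were 1.08%, 1.47% and 4.55. The same ratio (6.76) was 7.98 after thinning to 1000 UMIs, 6.22 with the other cells weighted to the class mix of the high cells, and 7.93 without Irf1. In C3-like cells the module ratio (0.842) was 0.714 without Irf1 and 0.94 with the interferon genes kept in the clustering, and in C6-like cells (0.969) it was 0.704 without Irf1. The cause was not tested in these cases, beyond what each alternative leaves out. Alternatives chosen after seeing the data were leaving out the thymic classes named above, leaving out the C8-like and B cell-like cells, which gave a hepatic module of 1264 CPM, leaving out the high cells, which gave 1231 and 898 CPM and 0.986 in C3-like cells, and other random draws of the thinning, over which the ratio of the members that are not definers lay between 6.27 and 7.44. No paired analysis was possible because each tissue had 1 library and the labels give no replicate numbers. Depth limits the low members most, above all Ifi44.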

Other observations

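The 583 hepatic and 190 thymic barcodes left out by the cell filters stood at 1394 and 945 CPM for the 37 interferon-induced genes. Of them, 1 hepatic and 0 thymic barcodes held UMIs of at least 3 definers. Of the 116 kept cells whose barcode occurred in both libraries, 1 was high.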
